A study of Rattus norvegicus with 38 samples.

Results

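Methylation at CpGs of 6 genes known for their work in the brain, Htr2a, Grik5, Gpr39, Gdnf, Srcin1 and Mog, was read in DNA from cheek swabs of newborn rats. The rule took every DMR (a region whose methylation the authors found to differ between the ages) that the study's own lists assign to one of these genes, whatever its weight in them. This gave 9 DMRs of the 3417 in all: 3 for Gdnf, 2 for Srcin1 and 1 for each of the other genes. Of these, 3 came from the list of age-related DMRs only, 5 from the list of experience-related DMRs only and 1 from both. Each of the 9 was a single CpG, as were 2510 of all DMRs.

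The animals were Sprague-Dawley pups, swabbed on postnatal day 2 (P2), when no pup had yet been assigned to a cage, and again on P10. LBN pups spent the week between in cages with limited bedding and nesting material, a model of early-life adversity, and control pups in standard bedded cages. There were 10 controls and 9 LBNs, 6 and 5 of them in cohort 1 and 4 and 4 in cohort 2, and the cohorts differed in date. Pups of several litters were mixed before assignment, and the sex, dam and cage of single pups were not modelled. The swab holds epithelial cells and white blood cells together, so a change of cell shares and a change of level within cells cannot be told apart. The values are DNA methylation, which gives no expression of marker genes against which the cells could be checked.

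The 6 genes cover several steps of signalling between cells of the nervous system. Htr2a encodes a serotonin receptor coupled to G proteins, Grik5 a subunit of the kainate class of glutamate receptors, and Gpr39 a zinc-sensing G protein-coupled receptor. Gdnf encodes a secreted neurotrophic factor that supports dopaminergic and other neurons. Srcin1 encodes a scaffold protein that restrains the kinase Src, and Mog a surface glycoprotein of myelin made by oligodendrocytes. Methylation of a CpG is the addition of a methyl group to its cytosine, and at promoters rich in CpGs it is commonly associated with a silent gene. Nothing here measures the brain or the expression of these genes.

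On rn6, the CpG of Htr2a lay in an intron at chr15:56670878-56670879, that of Grik5 in an intron at chr1:81919357-81919358 and that of Gpr39 in the promoter at chr13:42008457-42008458. The CpGs of Gdnf lay upstream between genes at chr2:56885581-56885582, in an intron at chr2:56892122-56892123 and in an exon at chr2:56892567-56892568. The intron and exon CpGs were 445 base pairs apart, and the intergenic CpG was 6541 base pairs from the intron CpG. Both CpGs of Srcin1 lay in an exon, 872 base pairs apart, at chr10:85478535-85478536 (from the age list) and chr10:85477663-85477664 (from the experience list). The CpG of Mog was intergenic, at chr20:1999249-1999250. The Htr2a, Gdnf intron and first Srcin1 CpGs stood only in the age list, the Gdnf exon CpG in both lists, and the other 5 only in the experience list.

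Gpr39 was the only gene of the 6 with its CpG in a promoter. Its RefSeq promoter window is shown because RRBS, reduced representation bisulfite sequencing, reads CpGs near the cut sites of the enzyme MspI. The window runs from 250 bases before to 50 after the start of transcription, on the plus strand of GRCr8 at chr13:39667658-39667957. Capitals mark the motif CCGG, which MspI cuts and which reads the same on both strands.
Gpr39: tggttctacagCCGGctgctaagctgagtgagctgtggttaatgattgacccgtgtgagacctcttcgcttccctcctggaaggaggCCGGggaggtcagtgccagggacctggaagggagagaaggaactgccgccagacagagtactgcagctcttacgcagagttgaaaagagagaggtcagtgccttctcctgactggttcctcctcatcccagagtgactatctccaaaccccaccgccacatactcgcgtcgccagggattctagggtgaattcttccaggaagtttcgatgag
The window held 11 CG pairs and 2 CCGG motifs, where 51.4% of 33469 such windows held at least 1 CCGG and the median number of CG pairs was 7. A second window of Gpr39, for another start, held 11 CG pairs and 0 CCGG. The measured CpG has rn6 coordinates and was not placed in this sequence. Windows were also found for Grik5, with 6 CCGG, and for Gdnf, with 1, and for these 3 genes of the 6 in all.

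All 9 CpGs had low to intermediate levels. Over the 38 samples, mean levels ran from 14.9% at Htr2a to 42.1% at the Gdnf intergenic CpG, against a median of 48.9% over all DMRs. In order they were Htr2a, the experience-list Srcin1 CpG (17.2%), Grik5 (20.4%), the Gdnf exon CpG (20.7%), Mog (25.1%), the Gdnf intron CpG (31.2%), the age-list Srcin1 CpG (33.6%), Gpr39 (40.0%) and the Gdnf intergenic CpG. Neighbours in this order differed by less than the SD between pups at either age.

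**Figure D1:**
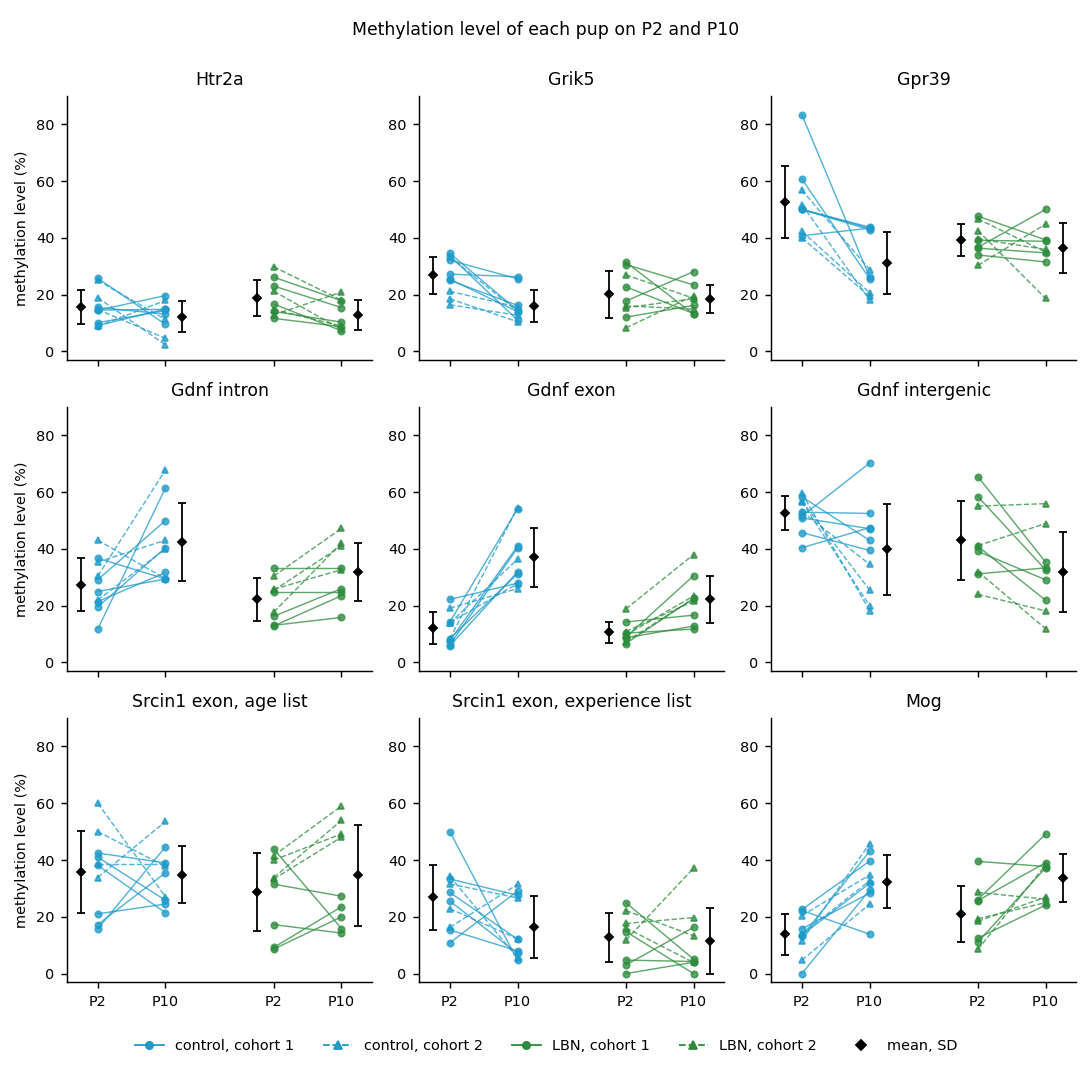
Methylation level (%) of the 9 CpGs in every pup on P2 and P10, with one line per pup, controls in blue and LBNs in green, circles for cohort 1, triangles for cohort 2, and black diamonds with bars for the mean and SD of each group. The line of the Gdnf exon CpG rose in 19 of 19 pups, and those of Gpr39 and Grik5 fell in 9 and 10 of 10 controls.

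From P2 to P10, the CpGs moved in different directions. Levels rose at the Gdnf exon CpG, the Gdnf intron CpG and Mog, and fell at Gpr39, Grik5 and the Gdnf intergenic CpG. These 6 of the 9 passed an adjusted p of 0.05, against 43.7% of all DMRs (limma with the pup as a block, Benjamini-Hochberg adjustment over 3417 DMRs). Every DMR had been selected for a difference between the ages in these pups, and the age list for its weight in the controls, so this count is given as a description. Adjusted p values for age are printed only for members outside the age list, or for LBNs alone, and they too refer to DMRs selected in this way. Effects are differences in log2 of the methylation odds, (percent + 1)/(100 − percent + 1).

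Mog showed the largest change among the CpGs that only the experience list holds. In controls, its level on P2 had a lowest value of 0%, a median of 13.7% and a highest value of 22.6%, and on P10 these were 13.9%, 32.3% and 45.8%. In LBNs they were 8.51%, 19.3% and 39.5% on P2 and 24.1%, 37.3% and 49.1% on P10. The ages overlapped in both groups, but the level was higher on P10 in 9 of 10 controls and in 7 of 9 LBNs. The mean rose from 17.3% ± 9.16 to 33.0% ± 8.74 (SD, n = 19 pups), by 1.43 log2 units (standard error 0.29, limma adjusted p = 0.000406). The change was 15.6 ± 12.2 percentage points in cohort 1 (n = 11) and 16.1 ± 12.2 in cohort 2 (n = 8), and no pup decided the call.

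Gpr39 fell. Its promoter CpG had a lowest level of 40.0%, a median of 50% and a highest of 83.3% in controls on P2, and 18.1%, 27.5% and 43.8% on P10. In LBNs these values were 30.3%, 39.1% and 47.6% on P2 and 18.6%, 35.9% and 50% on P10. The ages overlapped in both groups, and the control with 83.3% stood above every other pup, the next at 60.7%. The level was lower on P10 in 16 of 19 pups, and the mean went from 46.2% ± 11.9 to 33.7% ± 10.1 (SD, n = 19). The change was −0.80 log2 units (standard error 0.25, limma adjusted p = 0.0126), and it passed when any one pup was left out. In cohort 1 alone it was −0.62 (limma adjusted p = 0.173), and in cohort 2 alone −1.05 (limma adjusted p = 0.0373).

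At Grik5, every control fell. Control levels had a lowest value of 16.4%, a median of 26.3% and a highest of 34.5% on P2, and 10.4%, 14.3% and 26.3% on P10. LBN levels were 8.25%, 17.7% and 31.5% on P2 and 13.1%, 18.6% and 28.1% on P10, with 5 pups lower and 4 higher on P10. Over all pups the mean went from 23.6% ± 7.96 to 17.2% ± 5.23 (SD, n = 19), a change of −0.52 log2 units (standard error 0.21, limma adjusted p = 0.0476). This call was lost when any of 15 of the 19 pups was left out (highest limma adjusted p = 0.0987) and held only without LBN 4 or LBN 12 of cohort 1 or LBN 4 or LBN 11 of cohort 2. It was also lost in either cohort alone, with changes of −0.68 (limma adjusted p = 0.0840) and −0.31 (limma adjusted p = 0.507).

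The CpGs of Gdnf did not move together. At the exon CpG, which stands in both lists, so that its calls are counted here but nothing is read from them, all 19 pups rose, as they did in one direction or the other at 77 of the 3417 DMRs (2.25%). Control levels had a lowest value of 5.88%, a median of 11.1% and a highest of 22.2% on P2, and 26.0%, 34.1% and 54.5% on P10. The ages of the controls thus did not overlap, at this CpG alone of the 9 and at 2.22% of all DMRs. LBN levels were 6.67%, 9.68% and 18.8% on P2 and 11.8%, 22.5% and 38% on P10, and overlapped. The mean went from 12.0% ± 5.62 to 37.1% ± 10.4 in controls (SD, n = 10) and from 10.6% ± 3.79 to 22.2% ± 8.28 in LBNs (SD, n = 9).

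At the Gdnf intron CpG, 445 base pairs away, the mean went from 25.0% ± 8.70 to 37.4% ± 13.0 (SD, n = 19), with 15 pups higher, 2 lower and 2 equal on P10. Across the 38 samples, with the mean of each cohort taken off, the log-odds levels of these CpGs correlated at a Pearson r of 0.63, the highest positive value among the 36 pairs of members. The samples of a pup are related and both ages are in this correlation, so it is a description. The intergenic CpG fell, from 48.1% ± 11.3 to 36.1% ± 15.2, by −0.77 log2 units (standard error 0.24, limma adjusted p = 0.0108). It correlated with the intron CpG at 0.18 and with the exon CpG at −0.11.

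At the Gdnf intergenic CpG, mean changes varied between groups and cohorts, though no test of such a difference passed. In cohort 2, the 4 controls fell from 59.6, 53.1, 56.9 and 56.5% to 18.3, 34.6, 25.5 and 20%, without overlap. The 4 LBNs of that cohort went from 55.1, 41.2, 24.0 and 32.0% to 56.0, 48.9, 18.2 and 11.9%. In cohort 1, the change was −0.01 ± 11.7 percentage points in controls (SD, n = 6) and −16.6 ± 12.9 in LBNs (SD, n = 5). The control mean change was thus near 0 in cohort 1 and −31.9 ± 9.83 in cohort 2 (SD, n = 4), and the order of the LBN and control means was not the same in the cohorts. With all pups of cohort 1 alone the change was −0.45 log2 units and no longer passed (limma adjusted p = 0.237). In a test of this difference, added after the values had been seen, the effect of LBN on the change differed between cohorts by 2.57 log2 units at this CpG (standard error 0.79, limma adjusted p = 0.117). None of the 9 CpGs passed that test, with 1 of 9 and 843 of 3417 at an unadjusted p under 0.05, and 0.0585% of all DMRs passed.

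At both Srcin1 CpGs, the mean shift with age over all pups was smaller than the SD between pups. The age-list CpG went from 32.5% ± 14.1 to 34.7% ± 13.8 (SD, n = 19), with 10 pups higher, 8 lower and 1 equal on P10. The experience-list CpG went from 20.2% ± 12.3 to 14.1% ± 11.2, a change of −0.69 log2 units (standard error 0.40, limma adjusted p = 0.171). It was listed at 0% in 1 LBN of cohort 1 on P2 and in another on P10. In cohort 2, the age-list CpG rose in all 4 LBNs, from 33.3, 41.6, 33.8 and 40.0% to 48.0, 59.0, 53.9 and 49.2%. The 4 controls of that cohort went from 50, 33.8, 38.5 and 60.0% to 37.8, 53.6, 38.5 and 27.1%, in both directions.

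Within 20 kb, the files held 3 further DMRs around the Srcin1 CpGs and 2 around the Mog CpG. Around the experience-list CpG of Srcin1, the DMR at chr10:85477388-85477560 went from 25.7% ± 11.9 to 21.9% ± 11.5 and that at chr10:85477958-85477965 from 14.6% ± 9.31 to 9.89% ± 6.48 (SD, n = 19). A farther one, at chr10:85466094-85466115, went from 42.9% ± 10.7 to 40.7% ± 13.4. All 3 means were lower on P10, and none passed (limma adjusted p = 0.415, 0.124 and 0.654 in that order). Near Mog, the DMR at chr20:1980012-1980013 rose from 35.9% ± 10.8 to 51.1% ± 13.2, in 15 of 19 pups (limma adjusted p = 0.00506). The DMR at chr20:1982382-1982394 rose from 68.9% ± 9.34 to 78.4% ± 6.45, in 18 of 19 pups (limma adjusted p = 0.00416). Both lay 16867 to 19237 base pairs below the Mog CpG and moved in its direction. No gene was assigned to these DMRs in the study's lists.

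**Figure D2:**
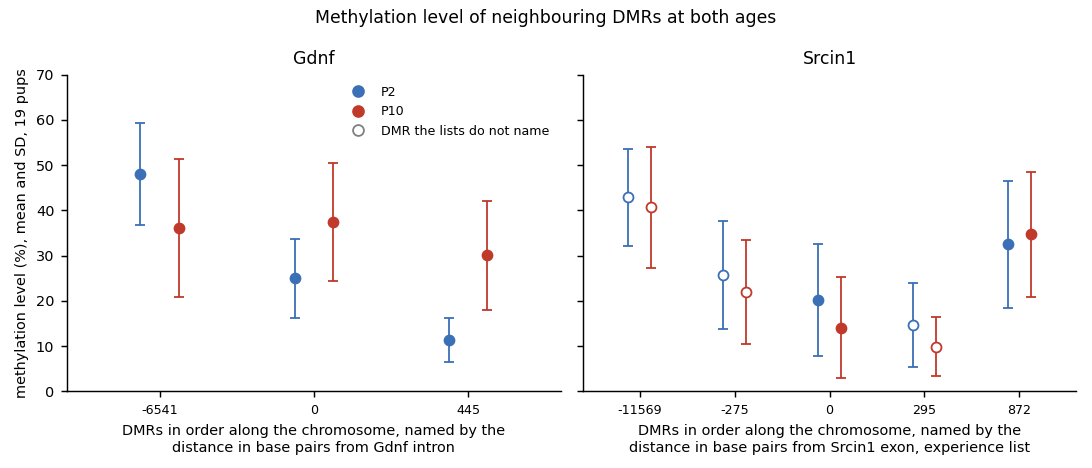
Mean methylation level (%) with SD over 19 pups at P2 (blue) and P10 (red) for the DMRs of Gdnf and Srcin1, in order along the chromosome and named by their distance in base pairs from the Gdnf intron CpG and the experience-list Srcin1 CpG. Filled points are CpGs of the lists and open points are DMRs that the lists do not name. Levels fell at the Gdnf CpG 6541 base pairs away and rose at the other 2.

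Htr2a went from 17.2% ± 6.23 to 12.5% ± 5.23 (SD, n = 19) and was lower on P10 in 13 of 19 pups. Since the age list was made from controls, its members were tested in LBNs alone. There, Htr2a had a lowest level of 11.6%, a median of 16.7% and a highest of 29.8% on P2 and 7.27%, 10.3% and 20.9% on P10, and it was lower on P10 in 8 of 9 pups, the exception being LBN 11 of cohort 2. The change was −0.66 log2 units (standard error 0.29, limma adjusted p = 0.154) and did not pass. The Gdnf intron CpG was higher on P10 in 7 of 9 LBNs and equal in the other 2, with a change of 0.70 (standard error 0.27, limma adjusted p = 0.119). The age-list Srcin1 CpG changed by 0.42 (standard error 0.36, limma adjusted p = 0.468).

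Among the 9 CpGs, 1 passed in LBNs alone, the Gdnf exon CpG, against 5.33% of all DMRs. This call was lost without LBN 2, LBN 4 or LBN 9 of cohort 1 or LBN 2, LBN 9 or LBN 11 of cohort 2. In controls alone 4 passed, the Gdnf exon CpG and Mog upward and Gpr39 and Grik5 downward, against 27.6% of all DMRs. In controls of cohort 1 alone the count was 1, the Gdnf exon CpG, in a fit that called 24 of all 3417 DMRs, where that of both cohorts called 943. Controls had served to choose the age list, and the counts of the groups were not tested against each other.

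The cohorts were also compared by the within-pup change. The lists had used changes with age or experience in these pups, but neither had been chosen by cohort. None of the 9 CpGs differed between cohorts at the adjusted p (limma, with experience as a covariate), where 2.40% of all DMRs did. At an unadjusted p under 0.05 it was 0 of 9 CpGs and 645 of 3417 DMRs. The widest difference, cohort 2 minus cohort 1, was −0.76 log2 units at the Gdnf intergenic CpG (standard error 0.48, limma adjusted p = 0.414), against a median of −0.35 over all DMRs. At Htr2a it was −0.57 (standard error 0.48, limma adjusted p = 0.578) and at Mog −0.02 (standard error 0.58, limma adjusted p = 0.995).

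**Figure D3:**
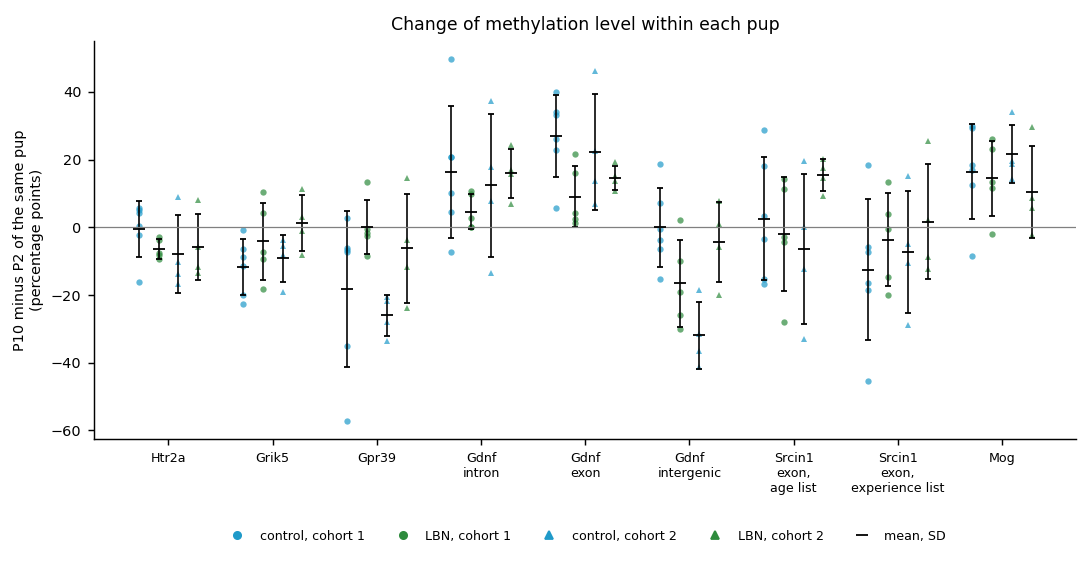
Change of methylation level from P2 to P10 within each pup, in percentage points, for the 9 CpGs, with controls in blue, LBNs in green, circles for cohort 1, triangles for cohort 2, and bars for the mean and SD of each of the 4 groups. The Gdnf exon CpG lies above 0 in every pup, and the control and LBN groups of the Gdnf intergenic CpG exchange places between cohorts.

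To ask what the week in LBN cages changed, the study used δ methylation, log2(P10/P2) within a pup, since it sets each pup against its own state before assignment. None of the 7 CpGs without a level of 0 differed between LBNs and controls in δ methylation at the adjusted p, as was so for 0% of all DMRs (limma with cohort as a covariate, 3354 DMRs). At an unadjusted p under 0.05 there were 2 of these 7 CpGs and 109 of 3354 DMRs. The 2 were Gpr39 and Grik5, which the experience list had chosen on this same contrast, so nothing is read from their count, and none of the 3 age-list CpGs was among them. The Mog and experience-list Srcin1 CpGs each had a sample at 0% and were outside this fit.

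The experience list had been chosen by weights that separate the groups in δ methylation, so only the age-list CpGs could be tested apart from that choice. Their own list had been chosen by age in the controls, who form a side of this contrast, so these tests are not free of selection either. At Htr2a, δ methylation was −0.48 ± 1.30 in controls (SD, n = 10) and −0.60 ± 0.60 in LBNs (SD, n = 9), a difference of −0.09 allowing for cohort (standard error 0.43). At the Gdnf intron CpG it was 0.64 ± 0.83 and 0.53 ± 0.41, a difference of −0.12 (standard error 0.30). At the age-list Srcin1 CpG it was 0.02 ± 0.85 and 0.29 ± 0.86, a difference of 0.27 (standard error 0.38). All 3 differences were smaller than their standard errors, with a limma adjusted p of 0.9999. At Htr2a the difference was −0.64 in cohort 1 and 0.67 in cohort 2, and the test between cohorts added for the Gdnf intergenic CpG did not pass for Htr2a (limma adjusted p = 0.367), the Gdnf intron CpG (limma adjusted p = 0.481) or the age-list Srcin1 CpG (limma adjusted p = 0.358).

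For the CpGs of the experience list, δ methylation is described without a test. At Gpr39, δ methylation was −0.80 ± 0.62 in controls and −0.13 ± 0.51 in LBNs, a smaller mean fall in LBNs. Levels on P2 were 52.6% ± 12.7 in the controls-to-be and 39.2% ± 5.69 in the LBNs-to-be, against 31.2% ± 10.9 and 36.5% ± 8.76 on P10, and these values are part of the δ methylation by which the CpG was chosen. On the log2 scale, LBNs were below controls by −0.40 on P2 and above them by 0.27 on P10, and the swab taken before assignment held 60.3% of the gap in δ methylation. Grik5 had the same form. Its δ methylation was −0.76 ± 0.49 in controls and −0.05 ± 0.78 in LBNs, levels on P2 were 26.7% ± 6.59 and 20.1% ± 8.24, levels on P10 were 16.0% ± 5.52 and 18.4% ± 4.90, and the P2 swab held 68.4% of the gap.

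The Gdnf exon CpG had the other form. It stands in both lists, chosen on values that include these levels, so nothing is read from this form. On P2 the groups differed by less than their SD, at 12.0% ± 5.62 in controls and 10.6% ± 3.79 in LBNs. On P10 the means were 37.1% ± 10.4 in controls and 22.2% ± 8.28 in LBNs, and their difference did not pass the adjusted p. In cohort 1, the P10 levels of the 5 LBNs were 22.6, 16.7, 30.6, 12.8 and 11.8%, and those of the 6 controls ran from 27.9% through a median of 36.1% to 54.2%. In cohort 2, the 4 LBNs had 38, 22.5, 21.5 and 23.4%, and the 4 controls 36.4, 54.5, 27.8 and 26.0%. The groups overlapped through 1 LBN in each cohort. δ methylation was 1.72 ± 0.89 in controls and 1.04 ± 0.62 in LBNs, a difference of −0.68. By cohort, this difference was −1.05 in cohort 1 and −0.16 in cohort 2. On the log2 scale, LBNs were below controls by −0.78 on P10 and by −0.10 on P2.

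Levels were also compared at each age. On P10, none of the 9 CpGs differed between LBNs and controls at the adjusted p, as for 0% of all DMRs, with 2 of 9 CpGs and 337 of 3417 DMRs at an unadjusted p under 0.05 (limma with cohort as a covariate). The 2 were the Gdnf exon and intron CpGs, both lower in LBNs. The exon CpG stands in the experience list, chosen on δ methylation that includes these levels, so nothing is read from it. On P2, before the pups were assigned, again none of the 9 and 0% of all DMRs passed, with 2 of 9 and 457 of 3417 at an unadjusted p under 0.05. These 2 were the experience-list Srcin1 CpG and Gpr39, both lower in the pups later assigned to LBN. Both were chosen in the same way, so nothing is read from them either. In cohort 1 alone, limma called 2 of the 9 on P10, the Gdnf exon and intergenic CpGs, both lower in LBNs, in a fit that called 409 of 3417 DMRs. Both stand in the experience list, chosen to separate the groups in these pups, so nothing is read from these calls. In cohort 2 alone limma called none of the 9 on P10, with 0 of 9 and 45 of 3417 DMRs at an unadjusted p under 0.05. On P2, limma called none of the 9 in either cohort alone, in fits that called 0 of 3417 DMRs in cohort 1 and 479 in cohort 2. At an unadjusted p under 0.05 there were 2 of 9 CpGs and 59 of 3417 DMRs in cohort 1, and 1 of 9 and 1196 of 3417 in cohort 2.

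For the age-list CpGs, the level of LBNs minus that of controls on P10 was 0.16 log2 units at Htr2a (standard error 0.35, limma adjusted p = 0.824), −0.70 at the Gdnf intron CpG (standard error 0.32, limma adjusted p = 0.482) and −0.16 at the age-list Srcin1 CpG (standard error 0.31, limma adjusted p = 0.809). On P2 these differences were 0.32 (standard error 0.29, limma adjusted p = 0.504), −0.41 (standard error 0.29, limma adjusted p = 0.428) and −0.60 (standard error 0.37, limma adjusted p = 0.397). The Gdnf intron CpG was thus lower in LBNs at both ages, with neither difference past the threshold.

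At the experience-list Srcin1 CpG, P2 levels were 26.9% ± 11.4 in controls (SD, n = 10) and 12.8% ± 8.67 in LBNs (SD, n = 9), and P10 levels were 16.4% ± 10.9 and 11.5% ± 11.7. The means of the groups were farther apart on P2 than on P10, and this change of the gap was not tested. This CpG and that of Mog stand in the experience list, chosen on δ methylation that includes these levels. Nothing is read from their gaps. At Mog, P2 levels were 13.8% ± 7.25 in controls and 21.1% ± 9.90 in LBNs, and P10 levels were 32.4% ± 9.32 and 33.7% ± 8.54.

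**Figure D4:**
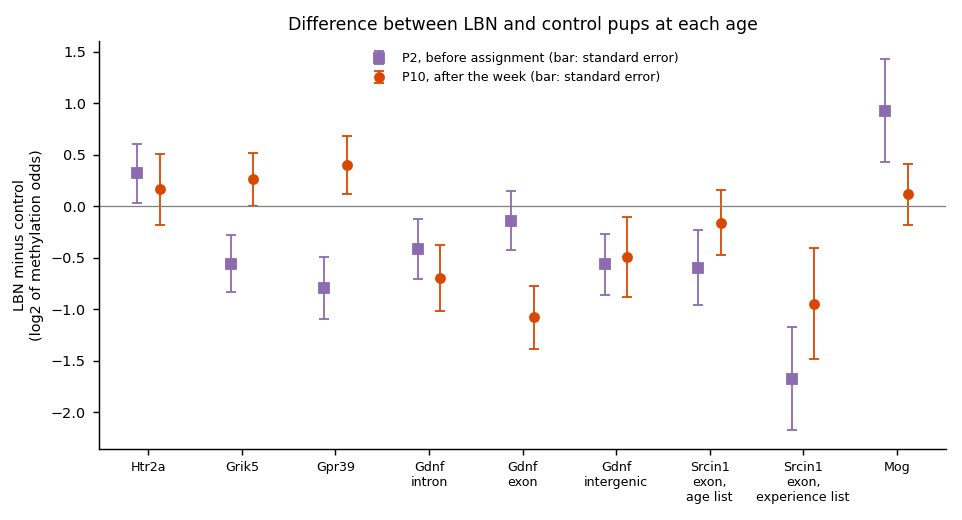
Difference between LBN and control pups, in log2 of the methylation odds with cohort as a covariate, at P2 (squares) and P10 (circles) for the 9 CpGs, with bars for the standard error from limma. At Gpr39 and Grik5 the difference is negative on P2 and positive on P10, and at the Gdnf exon CpG it is −0.14 on P2 and −1.08 on P10.

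Other genes of the study's lists were grouped by role, with the lists drawn from DMRs that the study had already chosen on these samples, so their directions are not independent evidence. Among 14 DMRs of 13 other receptor and channel genes, 8 fell with age, 1 rose and 5 did not pass, where 1026 of all 3417 DMRs fell and 467 rose, with a median change of −0.80 log2 units against −0.14 over all DMRs. Kcnk5, a potassium channel, fell from 80.4% ± 9.09 to 50.6% ± 26.5 (SD, n = 19, limma adjusted p = 3.81e-05). Ffar4, a receptor for long-chain fatty acids, fell from 61.5% ± 13.0 to 35.1% ± 11.8 (limma adjusted p = 6.25e-05). The 3 receptor genes of this report had lower means on P10 as well, Gpr39 and Grik5 past the threshold and Htr2a not.

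Among 12 DMRs of genes for synapses and vesicle release, 5 rose and 2 fell, where 467 of all 3417 DMRs rose and 1026 fell. Their median was 0.25 against −0.14 over all DMRs. Dbn1, an actin-binding protein of dendritic spines, rose from 28.6% ± 7.87 to 45.9% ± 9.57 (SD, n = 19, limma adjusted p = 6.44e-05). Kalrn, a GTPase exchange factor of spines, fell from 75.5% ± 13.4 to 61.8% ± 16.9 (limma adjusted p = 0.00416). Among 16 DMRs of axon guidance and adhesion genes, 4 rose and 2 fell, beside the same counts over all DMRs, with a median of 0.33. Nrp1, a receptor for semaphorins and VEGF, rose from 20.2% ± 9.59 to 36.3% ± 9.93 (limma adjusted p = 0.00107), and Slit3, a secreted guidance cue, fell from 48.5% ± 13.1 to 31.8% ± 13.7 (limma adjusted p = 0.00219). The 2 other glial genes, Bcan and Nkx2-2, did not pass (limma adjusted p = 0.148 and 0.460), unlike Mog. In δ methylation, none of the 13 receptor and channel, 12 synaptic, 14 axon guidance and 2 glial DMRs without a level of 0 passed between LBNs and controls (limma), and the others were not in that fit.

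DMRs of genes that mark the cells of the swab moved with age as well. Of 12 DMRs of epithelial genes, 6 fell and 1 rose, and of 17 DMRs of leukocyte genes, 9 fell and 4 rose, again beside 1026 falling and 467 rising among all 3417. The leukocyte list shares the genes Gpr132 and P2ry14 with the receptor and channel list, so their DMRs are counted in both. The mean level of the epithelial list in a pup was 40.0% ± 7.37 on P2 and 32.2% ± 9.91 on P10 in controls (range 28.2 to 49.9% and 19.8 to 46.4%), and 41.6% ± 8.39 and 35.2% ± 13.3 in LBNs (range 32.5 to 55.7% and 18.9 to 49.5%). That of the leukocyte list was 40.0% ± 3.21 on P2 and 31.0% ± 3.95 on P10 in controls (range 34.9 to 45.5% and 25.2 to 37.0%), and 35.1% ± 3.90 and 32.1% ± 4.15 in LBNs (range 31.3 to 42.0% and 25.0 to 37.7%). On P2 the mean of the leukocyte list was lower in the LBNs-to-be, as were the means of Gpr39, Grik5 and all Gdnf and Srcin1 CpGs, and the ranges overlapped. The means of Htr2a, Mog and the epithelial list were higher in the LBNs-to-be. The leukocyte list and these CpGs include DMRs of the experience list. That list was chosen on δ methylation, which includes P2 levels, so nothing is read from a shared direction on P2. The part of cell shares in any of these values was not tested.

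To see which other DMRs vary as these CpGs do, the log-odds levels of all DMRs were correlated with each member over the 38 samples, with cohort means taken off. The closest to Htr2a were exonic and intronic DMRs of Dact3 and Ccdc85c (Pearson r = 0.83 and 0.82), to Grik5 DMRs of Bfsp1 and Sipa1 (0.78 and 0.75) and to the Gdnf exon CpG DMRs of Etv5 and Fzd2 (0.81 and 0.80). The Gdnf intergenic CpG had the highest values, 0.90 with the DMR of Rab3gap2 and with one at chr12:39830226-39830249. The closest to the Gdnf intron CpG were a DMR at chr3:166538735-166538736 and one of Alpk1 (0.75 and 0.73). The age-list Srcin1 CpG was most like its own neighbour at chr10:85477388-85477560, 1147 base pairs away (0.83), followed by chr8:22269851-22269873 (0.81). For the experience-list Srcin1 CpG these were chr8:102031796-102031837 (0.73) and chr9:15924705-15924706 (0.72), for Gpr39 chr15:34252547-34252604 (0.73) and chr10:40197906-40197907 (0.70), and for Mog chr3:9586724-9586725 (0.82) and chr14:42593107-42593110 (0.79). By rank, these pairs ran from a Spearman rho of 0.49, for Gpr39 with chr10:40197906-40197907, to 0.91, for the Gdnf intergenic CpG with Rab3gap2. For Mog with chr3:9586724-9586725 it was 0.68. Between members, Gpr39 and Mog were the most opposed (Pearson r = −0.72). Ages, pups and swabs are shared in all of these correlations, which are given as descriptions only.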

How the data were processed

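Methylation was measured by RRBS in 38 buccal swab samples, P2 and P10 of 19 pups. Per the labels and the study's methods, the authors trimmed reads with Trim Galore 0.4.3, aligned them to rn6 with Bismark 0.16.3 and deposited, for each of 3417 DMRs and each sample, the methylation percent, the share of methylated among all reads of its CpGs, with no correction for cohort. Every DMR had been chosen by the authors for a difference between P2 and P10 in pups of these cohorts. No read numbers come with the percentages, so the depth is unknown and a single value has no interval. Gene names and features were taken from the study's lists and no values from them. The members and the gene lists were chosen with earlier results of these data known.

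Tests used limma 3.58.1 in R 4.3.3 over all DMRs, two-sided, with Benjamini-Hochberg adjustment at 0.05: on log2((percent + 1)/(100 − percent + 1)) for levels, where age fits had pups as blocks, and, for δ methylation, on log2(P10/P2) of the 3354 DMRs without a 0. Fits of experience had cohort as a covariate. The labels name the pup of each sample, and P2 and P10 of 1 pup were paired as the same animal. P values measure the spread between pups, treated as independent. The experience was given by dam and cage, and pups that shared a cage may not be independent. The fits were also run on simulated data with planted changes. The noise there was independent between DMRs, unlike the correlated DMRs of the data, so nothing is read from those runs. Named DMRs were all members, every other DMR within 20 kb, for each member the 2 most alike DMRs, and for each gene list at most 2 with the largest change. Values were summarised in Python 3.11.15 with pandas 2.3.3 and numpy 2.4.6. Promoter windows were from RefSeq on GRCr8. Other scales, pseudocounts, filters, blocks, variance models, single cohorts and each pup left out were tried.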

Additional observations from a re-analysis of the deposited data

Results flagged for a closer look

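In each cohort, experience group and age, the highest and the lowest pup were compared with the others of the group by Dixon's test, over 72 groups of 4 to 6 pups. In 2 of them 1 pup stood apart, where chance alone gives about 1 in 20. At the Gdnf exon CpG, LBN 2 of cohort 2 had 38% on P10, and the other 3 LBNs of that cohort had 21.5 to 23.4%. At the Mog CpG, LBN 4 of cohort 2 had 38.2% on P10, and the other 3 had 25.0 to 27.0%.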

How the results depend on the processing

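No read numbers come with the percentages, so another coverage minimum was not run, and how depth limits a single value is unknown. Of the counts of members past the adjusted p, the age count over all pups was 6 and became 2 in cohort 1 alone, in fits that called 1493 and 880 of all 3417 DMRs. It was 5 to 7 when single pups were left out, in fits that called 1356 to 1575 of all DMRs. In LBNs it was 1 and became 0 in percentage points and in cohort 1 alone, and 0 to 1 without single pups. These LBN fits called 182, 208, 563 and 16 to 198 of all DMRs, in that order. In controls the count of members was 4 and became 7 without the pup as a block and 1 in cohort 1 alone. The control fits called 943, 1342 and 24 of all DMRs, in that order. For LBNs against controls on P10 the count of members was 0 and became 2 in cohort 1 alone, in fits that called 0 and 409 of all DMRs. The other 46 alternative counts that kept all pups or 1 whole cohort stayed within 1.5 times, and the cause of these changes was not tested.

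A few differences between groups that had not passed the threshold changed sign. For LBNs minus controls, δ methylation became 0.67 at Htr2a in cohort 2 alone, 0.29 at the Gdnf intron CpG in cohort 2 alone and −0.0667 at the age-list Srcin1 CpG in cohort 1 alone, and the P10 level became −0.34 at Htr2a in cohort 1 alone and 0.79 at the age-list Srcin1 CpG in cohort 2 alone. With a replicate block for the pup numbers that controls and LBNs of a cohort have in common, δ methylation at the Gdnf intron CpG became 0.0274 and the count of members called stayed 0. The labels do not say whether pups with the same number share anything. Over 5 such pairs, deviations of δ methylation correlated at −0.69 to 0.37, with 3 pairs over 0.1. Over 41 other pairs they correlated at −0.67 to 0.75, with 17 over 0.1. With 5 pairs this cannot decide whether the number marks a pairing. For cohort 2 minus cohort 1, the age change became −0.0025 at the Gdnf intron CpG and −0.0319 at the age-list Srcin1 CpG on the log2(P10/P2) scale, and 0.26 at the Gdnf exon CpG and 0.76 at Mog in percentage points.

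When single pups were left out, δ methylation of LBNs minus controls was −0.37 to 0.15 at Htr2a and −0.27 to 0.0749 at the Gdnf intron CpG, and the P10 level was −0.0605 to 0.30 at Htr2a. The difference of cohorts was −0.0753 to 0.41 at the Gdnf intron CpG, −0.35 to 0.13 at the Gdnf exon CpG, −0.18 to 0.41 and −0.0760 to 0.69 at the age-list and experience-list Srcin1 CpGs, and −0.28 to 0.34 at Mog.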
